A study of Mus musculus with 40 samples.

Results

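Expression of 10 integrin subunit genes was followed across 10 groups of mouse cardiac fibroblasts. The genes were *Itga1*, *Itga2*, *Itga3*, *Itga5*, *Itga8*, *Itga11*, *Itgav*, *Itgb1*, *Itgb3* and *Itgb5*. They were taken from a fixed list of symbols, matched through the annotation to the Ensembl identifiers of a count table of 55414 genes. All 10 had counts in every library, and all passed the filter of 10 counts in total over 40 libraries that kept 25210 genes for testing.

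Integrins are cell-surface receptors made of an α and a β chain, and they tie the extracellular matrix to the actin cytoskeleton through adaptors such as talin and kindlin. The α chain largely sets which matrix protein is bound. In fibroblasts α1, α2 and α11 pair with β1 to bind collagens, α3 pairs with β1 to bind laminins, and α5 and α8 pair with β1 to bind fibronectin and other proteins that carry an Arg-Gly-Asp site. The αv chain pairs with β1, β3 or β5, binds vitronectin and fibronectin, and can release active TGFβ from its latent complex.

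The cells were primary cardiac fibroblasts from TAK1fl/fl mice on the C57BL/6J background, used at passage 1 after growth in medium with serum and bFGF. All groups carried the floxed *Map3k7* allele, the gene for the kinase TAK1, and all were transduced with an adenovirus whose CMV promoter drove either LacZ, the control, or iCre recombinase, which removes the floxed exon. Cells were then serum-starved and received either no ligand (CTRL), bFGF at 20 ng/ml, TGFβ at 10 ng/ml, IL-1β at 15 ng/ml or TNFα at 10 ng/ml for 24 h. Polyadenylated RNA was sequenced from 4 replicates in each of the 10 groups of virus and ligand, 40 libraries in all. The study describes the replicates as biological and from males, and its fibroblasts as isolated from adult mice. The exact age and whether each replicate was a separate heart are not given in the sources used here, so p-values measure the spread between these libraries. LacZ and iCre differ in the protein that the virus made as well as in TAK1, and these cannot be told apart.

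Library totals lay between 25360947 and 66160732 counts, with a median of 36183962, and the lowest count of any member in a library was 54 and the highest 100082. *Map3k7* was lower in iCre than in LacZ with TGFβ, IL-1β and TNFα, with log2 differences of -0.67, -0.82 and -0.71, and the differences of -0.28 in CTRL and -0.40 with bFGF gave adjusted p = 0.137 and 0.351 without a block for the replicate number, and 0.00393 and 0.000409 with it. In CTRL the ranges did not overlap, at 144 to 159 CPM in LacZ and 123 to 133 CPM in iCre cells. Its counts cover all exons, including those outside the deleted one. The 10 fibroblast markers were all detected, with summed levels of 15380 to 69656 CPM in single libraries, against 3.93 to 26.1 CPM for 5 endothelial markers and 16.4 to 156 CPM for 6 leukocyte markers detected. Pericyte and smooth muscle markers summed to 73.8 to 1922 CPM, to which *Rgs5* gave up to 1365.5 and *Cspg4* up to 559.99 CPM in single libraries. Replicate 2 stood apart in most groups: over its 10 libraries the median level was 1980.4 CPM for *Pdgfra* and 245 CPM for *Rgs5*, against 999 to 1103 and 650 to 844 CPM in the other replicate numbers. *Pdgfra* was the only one of the 10 fibroblast markers with its highest median in replicate 2. The others had their lowest median there, as did the sum of the 10, at 24299 against 27324 to 36287 CPM. Log counts rose with the GC content of genes by 0.217 to 0.330 per 10 percentage points in iCre cells given TGFβ, IL-1β or TNFα, and the slope was -0.243 to -0.0139 in the other groups. The numbers in the library names also ran by virus, so library number and virus cannot be told apart.

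All members are protein-coding, and their positions are those of GRCm38. *Itga1* (chr13:114953096-115101964, minus strand) and *Itga2* (chr13:114833081-114932100, minus strand) are neighbours. *Itga3* lies at chr11:95044474-95076801 on the minus strand and *Itgb3* on the plus strand of the same chromosome at chr11:104608000-104670476. *Itga8* is at chr2:12106632-12301922 (minus strand) and *Itgav* at chr2:83724397-83806916 (plus strand). *Itga5* is at chr15:103344286-103366763 (minus strand), *Itga11* at chr9:62677826-62783982 (plus strand), *Itgb1* at chr8:128685654-128733200 (plus strand) and *Itgb5* at chr16:33829665-33949338 (plus strand). Exons of *Itga1* overlap those of *Gm49395* on the same strand, and exons of *Itga8* and *Itgav* overlap *E030013I19Rik* and *Gm13684* on the opposite strand. The strand setting of the counting is not given in the sources used here, so reads shared by these pairs cannot be assigned.

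The 250 bases upstream of the start site are shown for *Itga5* and *Itga11*, the members with the largest rise under TGFβ, and for *Itga2*, the member with the largest rise under TNFα. They come from the RefSeq annotation of GRCm38.p6, which gave a promoter for 9 of the 10 members, and run 5′ to 3′ on the strand of the gene at chr15:103366792-103367041, chr9:62677605-62677854 and chr13:114932101-114932350. Capitals mark matches to a motif on either strand.
Itga5: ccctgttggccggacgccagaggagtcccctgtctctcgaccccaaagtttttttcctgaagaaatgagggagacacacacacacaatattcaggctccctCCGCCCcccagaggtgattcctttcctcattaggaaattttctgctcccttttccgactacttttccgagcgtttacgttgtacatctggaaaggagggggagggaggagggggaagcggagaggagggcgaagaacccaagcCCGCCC
Itga11: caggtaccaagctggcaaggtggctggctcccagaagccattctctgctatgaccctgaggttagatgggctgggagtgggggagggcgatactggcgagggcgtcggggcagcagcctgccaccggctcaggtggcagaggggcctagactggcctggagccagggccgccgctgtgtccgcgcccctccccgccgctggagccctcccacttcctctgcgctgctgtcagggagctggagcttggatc
Itga2: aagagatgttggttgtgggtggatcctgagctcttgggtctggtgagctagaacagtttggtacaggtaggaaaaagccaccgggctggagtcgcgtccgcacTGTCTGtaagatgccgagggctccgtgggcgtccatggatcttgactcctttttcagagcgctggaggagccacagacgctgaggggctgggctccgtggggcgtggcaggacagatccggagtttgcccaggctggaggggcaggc

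The motifs searched were AP-1 (TGANTCA), Sp1 (GGGCGG), TEAD (GGAATG), SMAD (CAGACA), NF-κB and the CArG box. They were found in 6.75%, 32.7%, 12.6%, 17.1%, 5% and 1.47% of 32851 promoters of the same length, in that order. The *Itga5* window held Sp1 matches 149 and 6 bases before the start site, and the *Itga2* window held a SMAD match 147 bases before it. None of the 6 motifs was found in the *Itga11* window, nor in those of *Itga1*, *Itga8* and *Itgav*. Sp1 letters were also present in the windows of *Itgb1*, *Itgb5* and *Itga3*, those of *Itgb1* and *Itga3* held SMAD letters as well, and that of *Itgb1* held a TEAD match 7 bases before the start site. A match is a description of the sequence, and a window without one says only that these letters are not in it.

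Per length of the longest transcript, *Itgb1* and *Itgb5* were the most abundant members in unstimulated LacZ cells. Mean levels were 332 ± 46.3 RPKM (SD, n = 4) for *Itgb1* and 126 ± 30.8 RPKM for *Itgb5*, and each stood apart from the next member in all libraries. *Itgav* (26.8 ± 3.98 RPKM), *Itga5* (23.6 ± 4.11), *Itga11* (18.5 ± 8.46), *Itga8* (8.56 ± 4.85), *Itga1* (8.04 ± 3.75) and *Itgb3* (4.25 ± 0.65) followed, and each of these neighbours overlapped in range. *Itga3* (2.70 ± 0.39 RPKM) and *Itga2* (1.61 ± 0.32 RPKM) were lowest, and their ranges overlapped neither each other nor that of *Itgb3*. RPKM depends on which transcript is taken as the length of a gene.

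**Figure D1:**
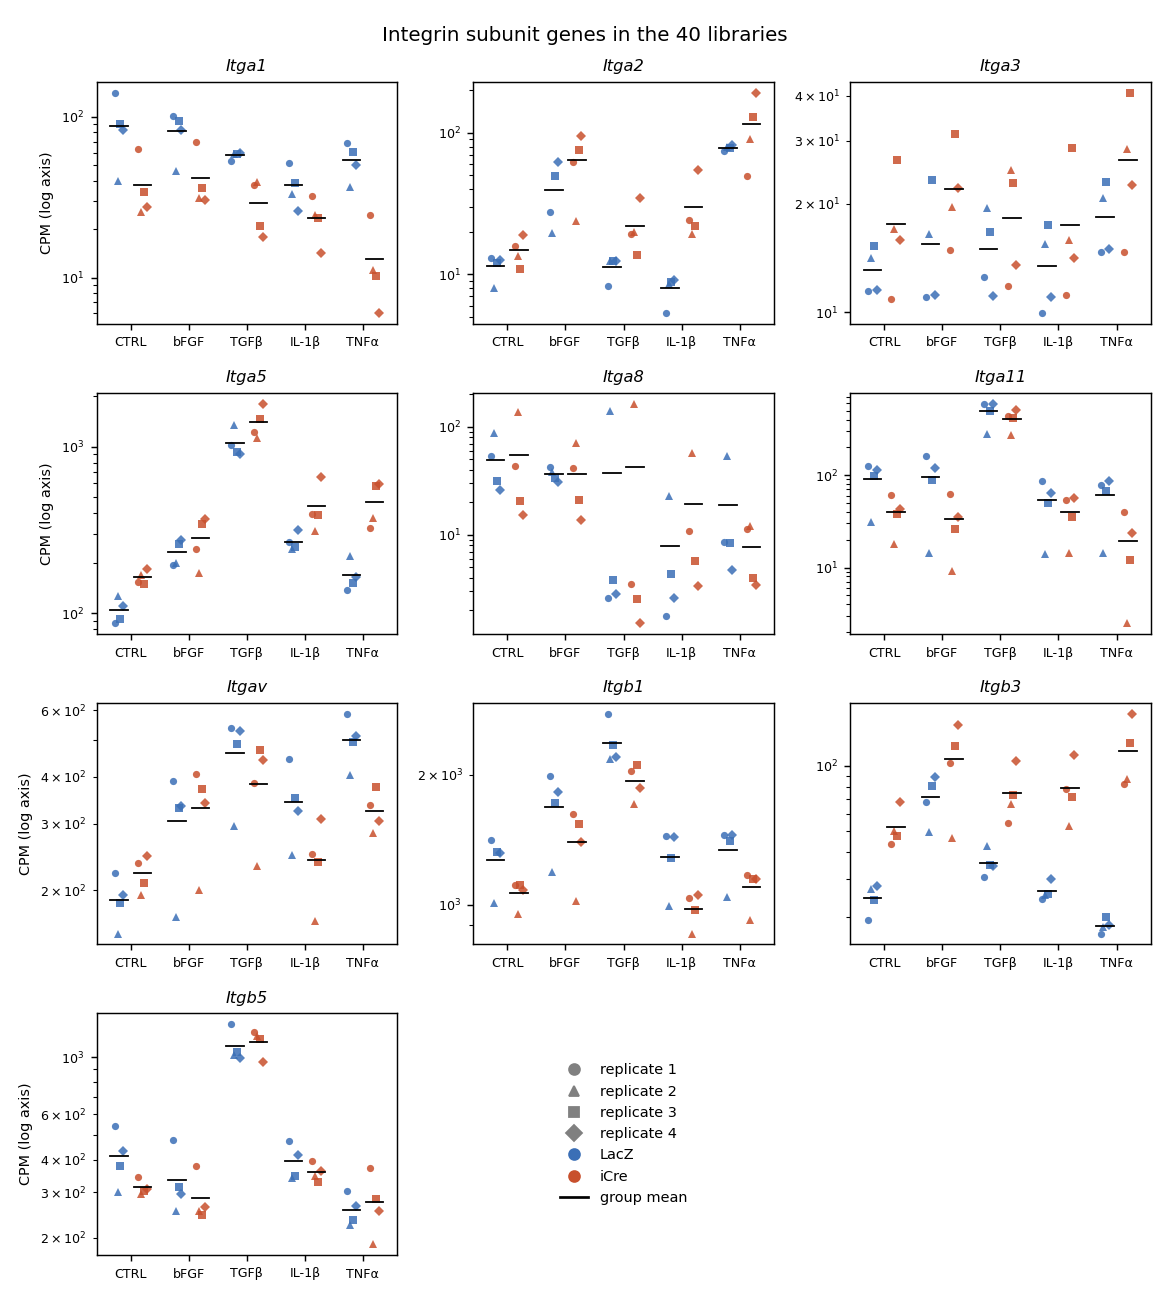
CPM on a log axis of each member in the 40 libraries, by ligand (x axis) and virus (LacZ blue, iCre orange); marker shapes give the replicate number and black lines the group means. Under TGFβ *Itga5* lies between 905 and 1809 CPM in 8 libraries, against 87.1 to 184 CPM in the 8 CTRL libraries, and *Itga8* splits by replicate number, at 140 and 164 CPM in replicate 2 and 1.52 to 3.79 CPM in the other 6 libraries.

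Without a block for the replicate number, TGFβ changed the most members against CTRL in LacZ cells and bFGF the fewest, and all ligand comparisons within a virus share their CTRL libraries. In bulk RNA, fewer cells of a type and less RNA per cell cannot be told apart in any of these differences. In LacZ cells TGFβ raised 6 of the 10 members and lowered 0, against 17.5% of all genes tested called higher and 19.3% called lower by edgeR's quasi-likelihood test. The same 6 genes had an unadjusted p under 0.05, and DESeq2 called 6 higher and 0 lower. The median log2 change of the 10 members was 0.74, and that of all genes tested was -0.17. Summed pericyte and smooth muscle markers were at 663.5 to 1169.8 CPM with TGFβ against 109 to 560.4 CPM in CTRL, and summed fibroblast markers at 54635 to 63637 CPM against 30281 to 47492 CPM. Neither sum overlapped between these groups, and their part in the changes of the members was not tested. The collagen genes *Col1a1*, *Col1a2* and *Col3a1* weigh most in the fibroblast sum, at up to 26433, 15732 and 33873 CPM in single libraries. *Pdgfra* reached 2537 CPM. These collagens are also among the genes for integrin-binding proteins described below. TNFα raised 3 and lowered 2 (background 10.9% and 10.4%), IL-1β raised 2 and lowered 2 (11.1% and 9.55%), and bFGF raised 3 and lowered 0 (7% and 4.64%). Under bFGF 5 members had an unadjusted p under 0.05, and DESeq2 called 4 higher and 0 lower.

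Markers of other cell types also moved with the ligands in LacZ cells. Endothelial markers summed to 24.3 to 26.1 CPM in CTRL, and to 11.8 to 15.8 CPM with bFGF, 6.84 to 8.81 with TGFβ, 6.85 to 9.57 with IL-1β and 7.88 to 15.9 with TNFα. The 3 cardiomyocyte markers detected lay at 14.6 to 110.4 CPM in CTRL and below that range with TGFβ, IL-1β and TNFα, down to 0.434 to 1.99 CPM with IL-1β, and platelet markers were at 1.84 to 3.98 CPM in CTRL and 5.62 to 17.5 CPM with IL-1β. In iCre cells with TGFβ, summed fibroblast markers lay at 45451 to 59989 CPM against 20902 to 36956 CPM in CTRL. Endothelial markers there lay at 3.93 to 6.85 CPM against 9.87 to 17.9 CPM. The part of these shifts in the changes of the members was not tested.

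Replicate numbers paired the libraries, and a block for the replicate number enlarged most counts. With the block in LacZ cells, bFGF raised 5 and lowered 1 (background 14.2% and 13.1%), TGFβ raised 6 and lowered 1 (19.6% and 22.5%), IL-1β raised 2 and lowered 4 (16.3% and 17.3%), and TNFα raised 4 and lowered 5 (17.2% and 18.4%). The order then differed, with 9 members called for TNFα, 7 for TGFβ and 6 each for bFGF and IL-1β. The count without the block was 6, 1, 2 and 2 for TGFβ, IL-1β, TNFα and bFGF when replicate 3 was left out, and 8, 6, 7 and 5 when replicate 2 was left out.

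In iCre cells TGFβ raised 5 and lowered 0 (background 18.6% and 18.8%), with 6 members at an unadjusted p under 0.05 and 6 raised and 0 lowered in DESeq2. TNFα raised 4 and lowered 2 (14.7% and 12.3%). IL-1β raised 1 and lowered 0 (9.38% and 6.88%), with 3 members at an unadjusted p under 0.05 and 2 raised and 0 lowered in DESeq2. bFGF raised 1 and lowered 0 (1.79% and 0.635%), with 5 members at an unadjusted p under 0.05 and 3 raised and 0 lowered in DESeq2. With the replicate block TGFβ raised 7 and lowered 1 (20.4% and 21.1%), TNFα 5 and 3 (18.9% and 17.3%), IL-1β 4 and 2 (18.1% and 15.6%), and bFGF 6 and 1 (9.28% and 7.41%). Without the block but also without replicate 3, the counts in iCre were 4 for TGFβ, 2 for TNFα, 1 for IL-1β and 0 for bFGF, and without replicate 2 they were 6, 6, 4 and 5.

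**Figure D2:**
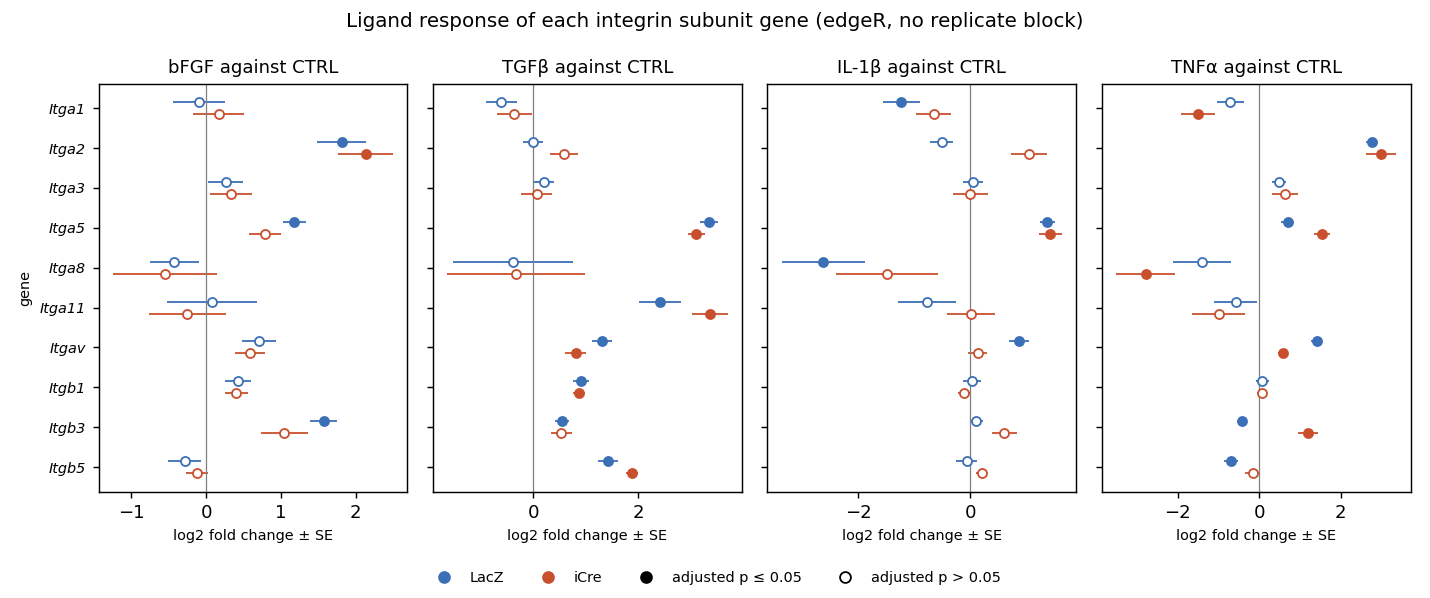
Log2 fold change against CTRL ± SE (x axis) of each member for the 4 ligands in LacZ (blue) and iCre (orange) cells, from edgeR without a replicate block; filled points passed an adjusted p of 0.05. *Itga5* and *Itga11* lie farthest to the right under TGFβ, at 3.35 and 2.43 in LacZ and 3.11 and 3.37 in iCre, and *Itga2* under TNFα, at 2.78 and 2.99.

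Of the collagen-binding α chains in LacZ cells, *Itga11* rose with TGFβ and *Itga2* with TNFα and bFGF, while *Itga1* was lower under IL-1β. Falls of *Itga11* under IL-1β and TNFα, and of *Itga2* under IL-1β, were called with the block or without replicate 2. *Itga11* encodes the receptor chain for fibrillar collagens that is largely restricted to mesenchymal cells. In LacZ CTRL replicates 1 to 4 it stood at 125, 31.1, 96.8 and 114 CPM, and under TGFβ at 595, 282, 498 and 584 CPM. The groups did not overlap, and replicate 2 was lowest in both. The rise was 2.43 ± 0.40 on the log2 scale (adjusted p = 0.000904). In iCre cells *Itga11* stood at 60.9, 18.0, 37.8 and 43.5 CPM in CTRL and at 441, 270.3, 415 and 507 CPM with TGFβ, a rise of 3.37 ± 0.34 (adjusted p = 2.94e-05). The difference between these responses was 0.91 ± 0.56, with adjusted p = 0.482 without and 0.0139 with the replicate block, and 0.108 with the block and a GC correction.

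With IL-1β *Itga11* stood at 86.5, 14.1, 50.2 and 64.1 CPM in LacZ cells, and with TNFα at 79.0, 14.3, 67.3 and 85.6 CPM. Each library was below the CTRL library of its number, although the ranges overlapped. The changes were -0.77 ± 0.52 and -0.58 ± 0.53 without the block (adjusted p = 0.341 and 0.493) and -0.84 ± 0.08 and -0.66 ± 0.08 with it (adjusted p = 8.67e-10 and 4.01e-06), and both were called without the block when replicate 2 was left out (0.011 and 0.00665). The block gave, in iCre cells, -1.38 ± 0.29 with TNFα and -0.42 ± 0.12 with bFGF (adjusted p = 0.00399 and 0.0267), where the fit without it gave adjusted p = 0.299 and 0.8603.

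*Itga2*, the α chain of the collagen receptor shared with platelets and epithelia, was the least abundant member at rest. In LacZ CTRL it stood at 13.0, 8.06, 12.1 and 12.6 CPM, and with TNFα at 74.0, 79.2, 77.6 and 82.2 CPM. The spread between the TNFα libraries was small, and none reached down to CTRL. The rise was 2.78 ± 0.15 (adjusted p = 4e-06). With bFGF the LacZ libraries held 27.7, 19.7, 49.4 and 62.0 CPM, all above CTRL, a rise of 1.81 ± 0.33 (adjusted p = 0.00846) that gave adjusted p = 0.0882 without replicate 3 and 0.0629 without replicate 4. In iCre cells the rise was 2.99 ± 0.38 with TNFα and 2.13 ± 0.37 with bFGF (adjusted p = 0.000475 and 0.0228), and the latter gave adjusted p = 0.155, 0.227 and 0.131 without replicate 1, 3 or 4. TGFβ left *Itga2* at 8.22, 12.4, 12.4 and 12.5 CPM in LacZ cells, all within the range of CTRL.

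*Itga1*, whose protein binds collagen IV and fibrillar collagens, stood at 140, 39.9, 90.0 and 82.4 CPM in LacZ CTRL and at 51.8, 33.2, 38.8 and 26.1 CPM with IL-1β. Each IL-1β library was below the CTRL library of its number, although the ranges overlapped through CTRL replicate 2. The change was -1.23 ± 0.34 (adjusted p = 0.0274), and it gave adjusted p = 0.132 without replicate 3 and likewise without replicate 4. With TNFα the LacZ libraries held 68.6, 36.7, 60.8 and 49.9 CPM, which gave adjusted p = 0.172 without and 7.34e-05 with the replicate block. In iCre cells TNFα libraries held 24.4, 11.1, 10.3 and 6.03 CPM, all below the 63.0, 25.7, 33.9 and 27.5 CPM of CTRL, a change of -1.50 ± 0.42 (adjusted p = 0.0257). The call was lost without replicate 3 or 4 (adjusted p = 0.124 and 0.0627) and with a GC correction (0.0507).

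Among the α chains that bind fibronectin and related proteins, *Itga5* and *Itgav* rose under most ligands and *Itga8* was lower under IL-1β in LacZ cells. *Itga5*, whose protein forms the main fibronectin receptor with β1, had the largest TGFβ response in LacZ cells. It stood at 87.1, 127, 92.1 and 110.1 CPM in CTRL and at 1019.8, 1347, 923 and 905 CPM with TGFβ. The lowest TGFβ library was far above the highest CTRL library. The rise was 3.35 ± 0.17 (adjusted p = 1.2e-06) in LacZ and 3.11 ± 0.17 (adjusted p = 7.88e-07) in iCre cells.

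*Itga5* also rose with the other 3 ligands in LacZ cells. With IL-1β it stood at 269, 242, 249 and 316 CPM, with bFGF at 194, 200.5, 260.4 and 275 CPM, and with TNFα at 137, 219.9, 151 and 165 CPM. All 12 of these libraries were above all CTRL libraries. The rises were 1.39 ± 0.13 with IL-1β (adjusted p = 0.000112), 1.18 ± 0.15 with bFGF (adjusted p = 0.00213) and 0.70 ± 0.16 with TNFα (adjusted p = 0.0118), the last with adjusted p = 0.0664 without replicate 3 and 0.0619 without replicate 4. In iCre cells the rises were 1.44 ± 0.21 with IL-1β and 1.54 ± 0.20 with TNFα (adjusted p = 0.0019 and 0.000561), and the bFGF change of 0.79 ± 0.21 gave adjusted p = 0.0933 without and 0.000961 with the block.

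*Itgav* encodes the chain shared by the vitronectin receptors. In LacZ CTRL it stood at 222, 153, 185 and 195 CPM, with TNFα at 586, 405, 495 and 514 CPM, and with TGFβ at 539.7, 296, 489 and 528 CPM. Both treated groups lay above CTRL in all libraries, with replicate 2 lowest in each. The rises were 1.41 ± 0.14 with TNFα (adjusted p = 0.000169), 1.31 ± 0.20 with TGFβ (adjusted p = 0.000455) and 0.87 ± 0.18 with IL-1β (adjusted p = 0.00713), the last with adjusted p = 0.0629 without replicate 3. With bFGF the LacZ libraries held 389, 169.7, 330.2 and 334 CPM, each above the CTRL library of its number, and the change of 0.71 ± 0.23 gave adjusted p = 0.0727 without and 8.69e-05 with the block. Without the block it was called by DESeq2 (0.0311) and without replicate 2 (0.000738). The bFGF change in iCre cells of 0.59 ± 0.20 gave adjusted p = 0.172 without and 0.00171 with the block. There it rose by 0.81 ± 0.20 with TGFβ and 0.59 ± 0.12 with TNFα (adjusted p = 0.00772 and 0.00553), with adjusted p = 0.0692 and 0.0649 without replicate 3, and 0.0691 for TNFα with all 40 libraries in a single fit.

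*Itga8*, the α chain of the nephronectin receptor, depended on the replicate number more than any other member. With TGFβ the LacZ libraries held 2.59, 140, 3.79 and 2.80 CPM against 53.5, 88.1, 31.5 and 26.0 CPM in CTRL. Replicate 2 was above its CTRL library, and the other 3 were far below theirs. The log2 change was -0.39 ± 1.15 over all 4 replicates (adjusted p = 0.831) and -3.58 without replicate 2 (adjusted p = 1.83e-06). With the replicate block it was -2.47 ± 0.70 (adjusted p = 0.0163). In iCre cells the same pattern held, with 3.47, 164, 2.55 and 1.52 CPM against 43.6, 138, 20.8 and 15.3 CPM, and a change of -0.33 ± 1.31 (adjusted p = 0.888) that was -3.39 without replicate 2 (adjusted p = 3.07e-05) and -2.31 ± 0.52 with the block (adjusted p = 0.00287).

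IL-1β lowered *Itga8* in LacZ cells to 1.79, 22.9, 4.34 and 2.59 CPM, a change of -2.63 ± 0.75 (adjusted p = 0.0322). All 4 libraries, replicate 2 included, were below CTRL. The call was lost without replicate 1, 3 or 4 (adjusted p = 0.108, 0.129 and 0.0948), and without replicate 2 the change was -3.68. TNFα lowered it in iCre cells to 11.2, 12.04, 3.99 and 3.40 CPM, a change of -2.79 ± 0.73 (adjusted p = 0.0172) that gave adjusted p = 0.0537 without replicate 3. With all 40 libraries in a single fit both calls were lost (adjusted p = 0.138 and 0.0897).

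With TNFα in LacZ cells *Itga8* stood at 8.51, 53.5, 8.46 and 4.77 CPM, and with IL-1β in iCre cells at 10.9, 56.9, 5.73 and 3.37 CPM. Each of these libraries was below the CTRL library of its number, although the ranges overlapped through replicate 2. The changes were -1.40 ± 0.72 and -1.48 ± 0.92 without the block (adjusted p = 0.2105 and 0.328), and -1.85 ± 0.21 and -1.76 ± 0.09 with it (adjusted p = 9.34e-07 and 3.92e-42).

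**Figure D3:**
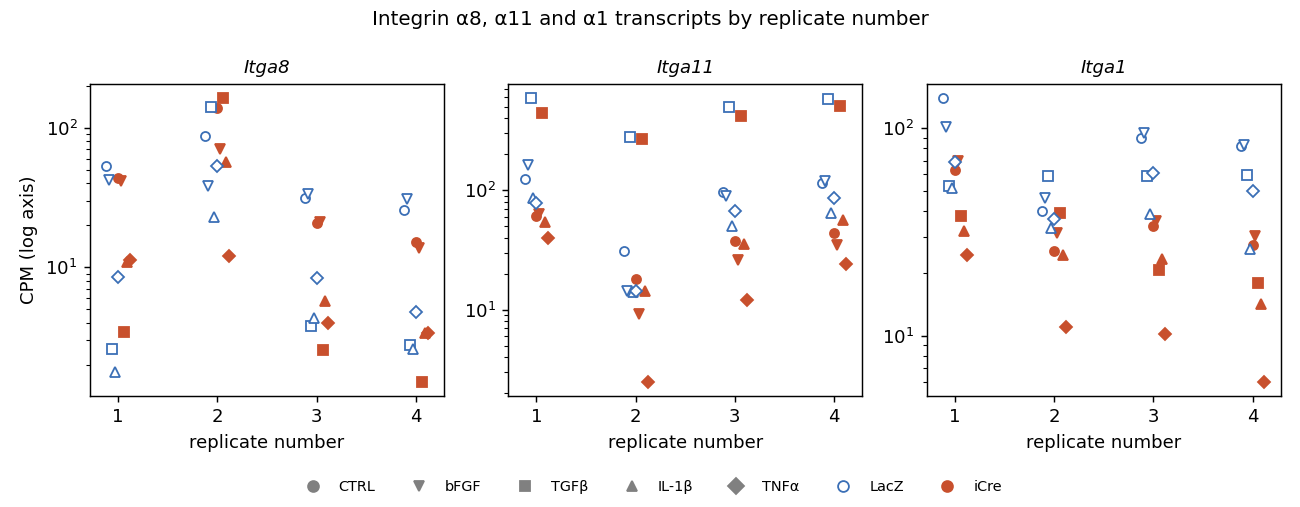
CPM on a log axis of *Itga8*, *Itga11* and *Itga1* in the 40 libraries by replicate number (x axis), with the ligand given by marker shape and the virus by colour (LacZ open blue, iCre filled orange). In replicate 2 the median of the 10 libraries is 63.8 CPM for *Itga8* and 14.3 CPM for *Itga11*, against 4.09 to 11.1 and 58.8 to 82.8 CPM in the other replicate numbers.

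Replicate 2 was the highest library for *Itga8* in 9 of 10 groups, and the lowest for *Itga11*, *Itgav* and *Itgb1* in 10 of 10 groups each. Levels of *Pdgfra* and *Rgs5* also differed between replicate numbers, and the part of cell composition in those of the members was not tested. Of the 10 fibroblast markers only *Pdgfra* was highest by its median in replicate 2, and the others were lowest. Among these, *Tcf21*, a fibroblast transcription factor, had a median of 12.8 CPM there, against 27.6 to 47.9 CPM.

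*Itga3*, the laminin-binding chain, was called in no ligand comparison by edgeR at the main settings without the block, where its unadjusted p was below 0.05 with TNFα in LacZ cells. That comparison was called by DESeq2 (adjusted p = 0.0247) and by edgeR with filterByExpr (0.0482) or a GC correction (0.0397). Over the 40 libraries it lay between 9.96 and 40.6 CPM. With TNFα it stood at 14.7, 20.7, 23.0 and 15.0 CPM in LacZ cells, each above the CTRL library of its number (11.5, 14.2, 15.3 and 11.6 CPM), and the change of 0.49 ± 0.17 gave adjusted p = 0.0669 without and 0.00013 with the block. In iCre cells it was also above CTRL in 4 of 4 pairs, and the change of 0.63 ± 0.32 gave adjusted p = 0.187 without and 0.000454 with the block. So it was with bFGF in iCre cells, where the change of 0.33 ± 0.28 gave adjusted p = 0.587 without and 0.0157 with the block.

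The 3 β chains differed in their responses. *Itgb1*, the common partner of most α chains here, rose with TGFβ alone among the ligands without the block. It stood at 1413, 1009.8, 1327 and 1315 CPM in LacZ CTRL and at 2762, 2169, 2339 and 2201 CPM with TGFβ, with no overlap. The rise was 0.92 ± 0.15 in LacZ and 0.88 ± 0.11 in iCre cells (adjusted p = 0.000891 and 0.000136). With bFGF it was above CTRL in 4 of 4 pairs in both viruses, and the changes of 0.42 ± 0.18 and 0.40 ± 0.15 gave adjusted p = 0.163 and 0.223 without the block, and 0.00029 and 0.00313 with it. Without the block, both were called when replicate 2 was left out (adjusted p = 0.00909 and 0.0119).

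*Itgb5*, which pairs with αv, stood at 543, 301, 380.2 and 431 CPM in LacZ CTRL and at 1339, 1018, 1049.6 and 996 CPM with TGFβ. In iCre cells the values were 344, 295, 304 and 309.6 CPM in CTRL and 1251, 1209, 1176 and 954 CPM with TGFβ. The groups were far apart in both viruses. The rises were 1.43 ± 0.19 and 1.89 ± 0.11 (adjusted p = 0.000223 and 1.47e-06). TNFα lowered *Itgb5* in LacZ cells to 302, 224, 233 and 264 CPM, a change of -0.69 ± 0.18 (adjusted p = 0.0201), with adjusted p = 0.105 without replicate 3 and 0.109 without replicate 4. In iCre cells the TNFα change was -0.16 ± 0.18 (adjusted p = 0.563).

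*Itgb3*, the other partner of αv and known also as the platelet integrin β chain, rose with bFGF in LacZ cells. In LacZ cells it stood at 19.5, 27.0, 24.0 and 27.7 CPM in CTRL and at 68.4, 49.6, 81.1 and 89.1 CPM with bFGF, a rise of 1.57 ± 0.18 (adjusted p = 0.00113) without overlap. In iCre cells bFGF libraries held 103, 46.2, 124 and 155 CPM, above CTRL in 3 of 4 pairs, and the change of 1.05 ± 0.31 gave adjusted p = 0.124 without and 0.000961 with the block. With TGFβ it rose by 0.56 ± 0.13 in LacZ cells (adjusted p = 0.00729), a call lost with all 40 libraries in a single fit (0.0948). In iCre cells it was above CTRL in 4 of 4 pairs with TGFβ and with IL-1β. Those changes of 0.54 ± 0.20 and 0.62 ± 0.22 gave adjusted p = 0.0579 and 0.092 without the block, and 0.000265 and 2.78e-11 with it. With TNFα it fell in LacZ cells, to 16.8, 18.0, 20.0 and 18.4 CPM (-0.42 ± 0.11, adjusted p = 0.0261), but rose in iCre cells from 43.4, 50.04, 47.6 and 67.8 CPM to 82.1, 87.4, 127 and 174 CPM (1.20 ± 0.24, adjusted p = 0.00483). The fall in LacZ cells gave adjusted p = 0.0678 without replicate 2, 0.0882 without replicate 3 0.156 without replicate 4 and 0.2698 with all 40 libraries in a single fit, and the rise in iCre gave 0.0523 without replicate 3.

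The comparison of iCre with LacZ was made for the members under each treatment. TAK1 deletion, the viral protein and the library number cannot be told apart in it. *Itgb3* was higher in iCre under IL-1β, TNFα and TGFβ. *Itga5* was higher with TNFα, *Itga2* was higher with IL-1β, and *Itga1* was lower with TNFα and TGFβ. With TNFα 2 members were higher and 2 lower (background 14.8% and 12.6% of all genes tested), with IL-1β 3 were higher and 0 lower (7.14% and 8.98%), and with TGFβ 1 was higher and 1 lower (2.51% and 5.87%). With IL-1β 6 members had an unadjusted p under 0.05, and DESeq2 called 3 higher and 2 lower. In CTRL edgeR called 0 members in either direction (0.0278% and 0.0476%), with 5 at an unadjusted p under 0.05 and 2 higher and 1 lower in DESeq2. With bFGF it called 0 in either direction (0% and 0%), with 2 at an unadjusted p under 0.05 and 0 in DESeq2.

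With the replicate block the counts were 4 higher and 4 lower in CTRL (background 6.79% and 7.7%), 3 and 3 with bFGF (6.64% and 7.22%), 3 and 4 with TGFβ (9.67% and 11.1%), 5 and 4 with IL-1β (14.6% and 14.9%) and 3 and 3 with TNFα (17.1% and 15.1%). In that fit *Itgb3* was higher, and *Itga1* and *Itga11* lower, in iCre under all 5 treatments, and *Itgb1* was lower under all but TNFα. *Itga3* was higher in CTRL and with bFGF, IL-1β and TNFα, and *Itga5* in CTRL and with TGFβ, IL-1β and TNFα. With a GC correction added to the block, 6 of the calls of this comparison were lost: *Itga3* with IL-1β and TNFα (adjusted p = 0.832 and 0.212), *Itga5* and *Itgav* with TGFβ (0.832 and 0.878), and *Itgb1* with bFGF and TGFβ (0.0576 and 0.440). Without the block, leaving out replicate 2 gave 4, 1, 6, 4 and 5 members called in CTRL and with bFGF, TGFβ, IL-1β and TNFα. Leaving out replicate 3 gave 0, 0, 0, 2 and 4.

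**Figure D4:**
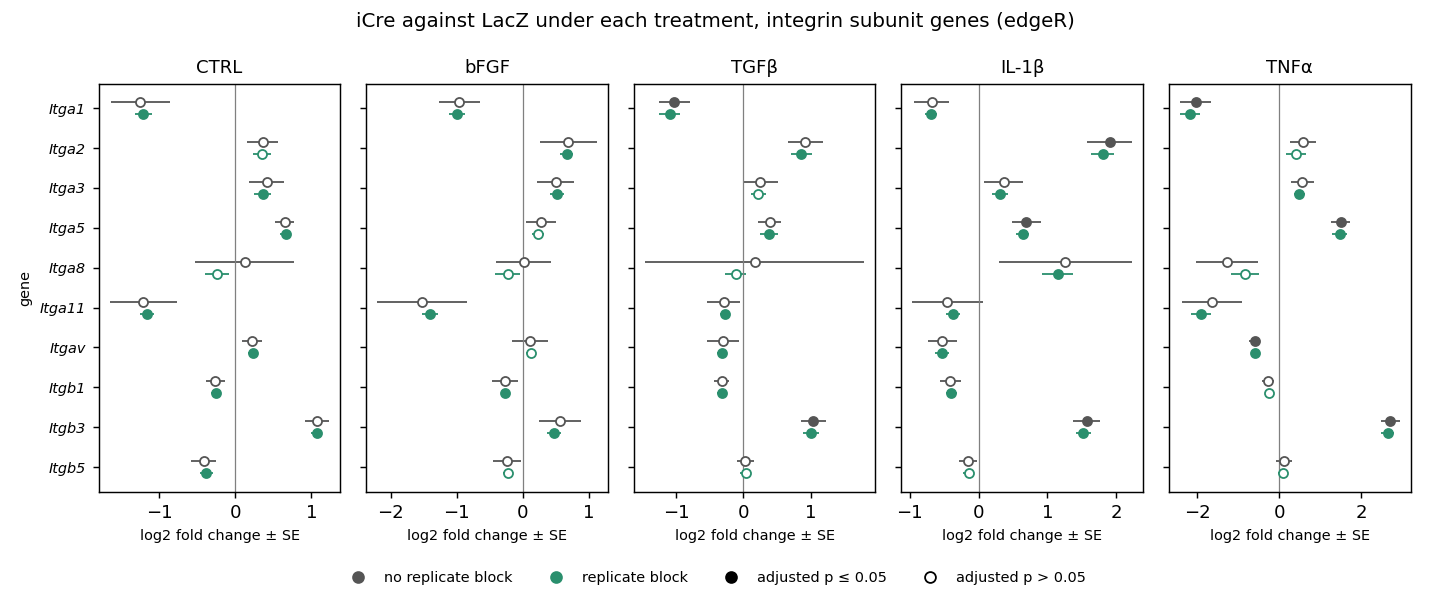
Log2 fold change of iCre against LacZ ± SE (x axis) of each member under the 5 treatments, from edgeR without (grey) and with (green) a replicate block; filled points passed an adjusted p of 0.05. *Itgb3* lies to the right in every panel, between 0.57 and 2.70 without the block, and *Itga1* and *Itga11* lie to the left in every panel.

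*Itgb3* in LacZ cells with TNFα, at 16.8 to 20.0 CPM, lay far below iCre cells with TNFα, at 82.1 to 174 CPM. The difference was 2.70 ± 0.22 on the log2 scale (adjusted p = 7.85e-05). It was 1.57 ± 0.20 with IL-1β (adjusted p = 0.000601), where LacZ libraries held 24.3, 25.3, 25.7 and 30.1 CPM and iCre libraries 78.3, 53.0, 71.6 and 113 CPM, and 1.04 ± 0.19 with TGFβ (adjusted p = 0.00766), which gave 0.087 without replicate 3. In CTRL the ranges did not overlap either, and the difference of 1.08 ± 0.16 gave adjusted p = 0.0566 without and 1.56e-07 with the block. The 3 platelet markers, mainly *Pf4*, summed to 1.33 to 2.95 CPM in iCre and 3.56 to 7.46 CPM in LacZ cells with TNFα, to 0.945 to 2.19 and 5.62 to 17.5 CPM with IL-1β, and to 0.592 to 2.18 and 0.80 to 2.16 CPM with TGFβ, and their part in these differences was not tested.

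*Itga5* with TNFα stood at 137 to 219.9 CPM in LacZ and at 325, 373, 579 and 594 CPM in iCre cells, a difference of 1.49 ± 0.22 (adjusted p = 0.00108). With IL-1β the difference was 0.69 ± 0.21 (adjusted p = 0.0499), and the call was lost with RLE normalization, with no filter and without replicate 1, 3 or 4 (adjusted p = 0.0574, 0.0514, 0.119, 0.184 and 0.0535). *Itga2* with IL-1β stood at 5.36, 8.55, 8.83 and 9.15 CPM in LacZ cells and 24.4, 19.4, 22.0 and 54.8 CPM in iCre cells, a difference of 1.91 ± 0.32 (adjusted p = 0.00311) without overlap. With TGFβ it lay at 19.4, 20.0, 13.6 and 34.6 CPM in iCre cells, above all LacZ libraries, with adjusted p = 0.0589 without and 0.000488 with the block.

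*Itga1* with TNFα was at 36.7 to 68.6 CPM in LacZ and at 6.03 to 24.4 CPM in iCre cells, a difference of -2.03 ± 0.39 (adjusted p = 0.00356). With TGFβ the difference was -1.02 ± 0.23 (adjusted p = 0.0237), and it gave 0.175 without replicate 3, 0.116 without replicate 4 and 0.074 with all 40 libraries in a single fit. *Itgav* with TNFα was 405 to 586 CPM in LacZ and 284 to 376 CPM in iCre cells, a difference of -0.60 ± 0.14 (adjusted p = 0.0092) that gave 0.0741 without replicate 4. *Itga11* was lower in iCre in 4 of 4 pairs in CTRL, with bFGF, with TGFβ and with TNFα. In CTRL its difference was -1.21 ± 0.44, with adjusted p = 0.265 without and 3.88e-07 with the block.

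The GC content of the transcripts differed among these members, and libraries of iCre with TGFβ, IL-1β and TNFα were tilted towards GC-rich genes. It was 57.3% for *Itga5* and 52.1% for *Itgb3*, and 42.8%, 43.7% and 43.5% for *Itga1*, *Itga2* and *Itgav*. With the replicate block and a GC correction together, the differences with TNFα were 2.52 for *Itgb3*, 1.23 for *Itga5*, -1.85 for *Itga1* and -0.33 for *Itgav* (adjusted p = 1.85e-05, 0.000682, 0.000303 and 0.0447), and that of *Itga2* with IL-1β was 2.04 (adjusted p = 2.91e-08). With the GC correction and no block, the TNFα call of *Itgav* was lost (adjusted p = 0.136), as were the IL-1β call of *Itga5* (0.251) and the TGFβ call of *Itga1* (0.221). Summed pericyte and smooth muscle markers were also higher with TNFα in iCre, at 303 to 1158 CPM against 73.8 to 370.1 CPM in LacZ cells, and their part in these differences was not tested. Summed fibroblast markers, in which collagen genes weigh most, were lower in iCre without overlap, at 15380 to 23303 against 25603 to 34250 CPM with TNFα and at 22995 to 35619 against 36639 to 69656 CPM with IL-1β, and their part was not tested either.

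The interaction of a ligand with iCre tested whether responses differed between viruses. Its value is the log2 change in iCre minus that in LacZ. A positive value can be a larger rise, a weaker fall or a change of direction. With TNFα, a positive value was called for 2 members and a negative one for 1 (background 8.38% and 7.7%). It was 1.62 ± 0.29 for *Itgb3* (adjusted p = 0.00133), whose change was -0.42 in LacZ and 1.20 in iCre. For *Itga5*, whose rise was larger in iCre, it was 0.84 ± 0.28 (adjusted p = 0.0495). For *Itgav*, whose rise was smaller in iCre, it was -0.83 ± 0.19 (adjusted p = 0.00805). The *Itga5* call was lost with RLE normalization (adjusted p = 0.0637), with no filter (0.0552) and without replicate 3 or 4 (0.305 and 0.238), the *Itgav* call was lost without replicate 4 (0.103), and with all 40 libraries in a single fit both were lost (0.0775 and 0.0773), as they were with the GC correction (0.151 and 0.0662).

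With IL-1β, a positive value was called for 1 member and a negative one for 0 (2.76% and 4.95%), with 2 members at an unadjusted p under 0.05 and 1 in each direction in DESeq2. The member was *Itga2*, at 1.55 ± 0.42 (adjusted p = 0.0307), and the call was lost without replicate 1, 3 or 4 (adjusted p = 0.147, 0.154 and 0.0626) and with all 40 libraries in a single fit (0.0754). In LacZ cells its IL-1β change was -0.51 ± 0.20 (adjusted p = 0.111), and in iCre cells it was 1.05 ± 0.32 (adjusted p = 0.0529). The block called both (0.0048 in LacZ and 7.67e-18 in iCre), with a variance drawn in part from other genes. Without it the LacZ fall was called when replicate 2 was left out (0.0182), and the iCre rise by DESeq2 (0.0148) and with the GC correction (0.042). Under TGFβ edgeR called 0 members in either direction (0.893% and 3.62%), and under bFGF 0 as well (0% and 0%), with 0 at an unadjusted p under 0.05 and 0 in DESeq2 for both ligands.

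With the replicate block a positive value was called for 3 members and a negative one for 2 with TNFα (13.2% and 11.9%), 3 and 1 for IL-1β (7.9% and 8.98%), 1 and 1 for TGFβ (2.36% and 5.68%) and 0 and 0 for bFGF (0% and 0%). Some of these were falls of unlike size. With TNFα *Itga1* changed by -1.57 in iCre against -0.62 in LacZ, and *Itgb5* by -0.20 against -0.67. With IL-1β *Itga8* changed by -1.76 in iCre against -3.06 in LacZ, and *Itga11* by -0.04 against -0.84. For bFGF 0 members had an unadjusted p under 0.05 in that fit. With the GC correction added, the calls of *Itga11* and *Itgav* for TGFβ (adjusted p = 0.108 and 0.378) and of *Itga1* and *Itgb5* for TNFα (0.135 and 0.257) were lost. Without the block, leaving out replicate 4 gave 1 call for TNFα, and leaving out replicate 2 gave 2 for IL-1β and 1 for TGFβ.

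Over all 40 libraries the members with the most similar log2 profiles were *Itga11* with *Itgb1* (Pearson's r = 0.87) and with *Itgb5* (0.86), and *Itgb1* with *Itgb5* (0.76). *Itga5* and *Itgb5* gave 0.70, and -0.26 once group means were removed. Libraries of a group share their treatment and those of a replicate number share their spread, so these values are descriptions. Genes below a mean of 5 CPM were left out of this search, which kept 10774, and the closest to *Itga5* were *Pvr* (0.98), *Srm* (0.97) and *Sec61a1* (0.97). Those most like *Itga11* were *Fam20a* (0.95), *Pknox2* (0.95) and *Postn* (0.94), and those most like *Itgb5* were *Col5a1* (0.95), *Col8a2* (0.95) and *Eln* (0.95). *Itgb3* was most like *Ank* (0.94), *Itgb1* like *Ikbip* (0.94), *Itga8* like *Tnik* (0.90), *Itga1* like *Pag1* (0.89), *Itgav* like *Msi2* (0.87), *Itga2* like *Gnb4* (0.87) and *Itga3* like *Mapk13* (0.71).

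Of 17 other integrin subunit genes on a fixed list, 9 had a mean of at least 1 CPM, 7 were tested below that level and 1, with no counts, was not tested. TGFβ raised 3 of the 16 tested and lowered 6 in LacZ cells (background 17.5% and 19.3%), with a median log2 change of -0.50 against -0.17 over all genes tested. The number raised was near the share of all genes. *Itga4* and *Itga9*, which encode chains that bind fibronectin variants, VCAM-1 and tenascin, rose by 2.64 ± 0.36 and 2.30 ± 0.38 in LacZ cells (adjusted p = 0.000263 and 0.000917), and by 2.70 ± 0.37 and 2.05 ± 0.31 in iCre cells. *Itgb8*, the other αv partner expressed here and a known activator of latent TGFβ, rose by 1.46 ± 0.14 with IL-1β, 1.18 ± 0.16 with TGFβ and 0.52 ± 0.09 with TNFα in LacZ cells. In iCre cells it fell against CTRL with TGFβ and TNFα, at -0.76 ± 0.25 and -1.31 ± 0.31 (adjusted p = 0.0343 and 0.0109). Its IL-1β change there was -0.37 ± 0.15 (adjusted p = 0.123). In iCre it was lower than in LacZ with TGFβ, IL-1β and TNFα, with log2 differences of -2.28, -2.15 and -2.13. Mean levels with IL-1β were 74.3 ± 15.1 CPM in LacZ and 16.9 ± 2.64 CPM in iCre cells (SD, n = 4), and the interaction of IL-1β with iCre gave adjusted p = 4.59e-05.

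The laminin-binding chains *Itga6* and *Itgb4* fell with TGFβ in LacZ cells, with log2 changes of -0.78 ± 0.25 and -1.79 ± 0.33 (adjusted p = 0.0338 and 0.00174), as did *Itga10*, *Itga2b* and the leukocyte chain *Itgb2* (-1.62, -1.80 and -1.10). *Itga7*, the laminin receptor chain of muscle, fell by 1.18 ± 0.20 with TNFα in LacZ cells (adjusted p = 0.00237).

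Of 26 integrin adaptor genes, TGFβ raised 15 and lowered 3 in LacZ and raised 15 and lowered 2 in iCre cells (background 17.5% and 19.3% in LacZ, 18.6% and 18.8% in iCre), with median log2 changes of 0.61 and 0.59, against -0.17 and -0.11 over all genes tested. *Actn1*, the α-actinin that links integrins to actin, rose from 267 to 2099 CPM in LacZ cells (2.997 ± 0.19, adjusted p = 3.28e-06), and *Flna*, filamin A, rose from 930 to 3027 CPM (1.72 ± 0.21, adjusted p = 0.000116). *Kank1* and *Tns2* fell, with log2 changes of -0.88 ± 0.14 and -0.51 ± 0.09. In LacZ cells TNFα raised 9 adaptors and lowered 0 (10.9% and 10.4% of all genes tested), IL-1β raised 5 and lowered 4 (11.1% and 9.55%), and bFGF raised 2 and lowered 1 (7% and 4.64%), the last near the share of all genes. For TNFα 14 adaptors had an unadjusted p under 0.05, and DESeq2 called 9 higher and 2 lower. With the replicate block TNFα raised 12 adaptors and lowered 6 (17.2% and 18.4% of all genes tested), IL-1β raised 9 and lowered 7 (16.3% and 17.3%), and bFGF raised 5 and lowered 5 (14.2% and 13.1%). *Parvb*, β-parvin, was higher in iCre than in LacZ with TNFα by 2.56 ± 0.51 (adjusted p = 0.00443), at 43.1 against 7.43 CPM.

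Of 27 genes for integrin-binding matrix and surface proteins, TGFβ raised 13 and lowered 4 in LacZ and raised 14 and lowered 4 in iCre cells (medians 0.56 and 0.62, with the same background shares). *Ccn2* and *Tnc*, the gene of tenascin-C, rose by 5.39 ± 0.45 and 3.33 ± 0.63 in LacZ cells (adjusted p = 1.19e-05 and 0.00203). *Vcam1*, the ligand of α4 and α9 integrins, rose from 684 to 6042 CPM with TNFα in LacZ cells (3.14 ± 0.13, adjusted p = 8.98e-07) and was lower in iCre than in LacZ with TNFα, at -1.85 ± 0.28 (adjusted p = 0.00114). In that comparison 2 of the 27 were higher in iCre and 11 lower (background 14.8% and 12.6%), with a median of -0.34 against 0 over all genes tested.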

How the data were processed

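Polyadenylated RNA of 40 libraries was sequenced, and the values deposited by the authors are whole read counts for each Ensembl identifier, from single-end reads aligned by STAR to mm10 and counted by HTSeq (FastQC 0.10.1 and HTSeq 0.10.0 in the submitters' processing notes), with no normalization. The annotation release is not given in the sources used here. The labels and the study's methods name different library kits.

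The counts were matched to GENCODE M21 (52133 identifiers, 99.59% of counts). Genes with at least 10 counts in total were tested in R 4.3.3 by edgeR 4.0.16 and its quasi-likelihood test (TMM normalization, 8 libraries in a comparison of groups and 16 in an interaction), with Benjamini-Hochberg adjustment over 25210 genes and a threshold of 0.05. Errors of log2 changes are standard errors, computed from the change and its F statistic. The variance behind them is moderated across genes, so very small p-values of the blocked fits do not measure the spread of 4 pairs alone. Levels are CPM over TMM-scaled totals, and RPKM divides them by the longest transcript. Intervals cover counting error and the spread of these libraries only. The tests were checked on simulated counts. Profiles were correlated on log2 CPM with a prior count of 2, over genes averaging 5 CPM or more. Named other subunits averaged 1 CPM or more, and named adaptors and ligands were those with the largest changes in each direction, at no overlap between groups and 5 CPM or more on average. Members and lists were chosen with earlier results of these data known.

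The replicate numbers of the labels paired the libraries: deviations from group means correlated between same-numbered libraries in each of 52 pairs of the comparisons (r of 0.361 to 0.877 over 10774 genes). The mean over same-numbered libraries of different groups was 0.575, and -0.159 for other numbers. Deviations cancel within a group, so a positive mean for same numbers forces a negative one for others, which is no reference level. The study's methods name DESeq2 with RLE normalization on protein-coding genes and state no block. Here edgeR without a block, on genes of all biotypes, was the main fit, and DESeq2 an alternative. Alternatives were a replicate block, a GC correction by a spline with 6 degrees of freedom, both together, DESeq2 1.42.0, RLE normalization, filterByExpr, no filter, all 40 libraries in a single fit, and leaving out each replicate number. Tables were made in Python 3.11.15 (numpy 2.4.6, pandas 2.3.3).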

Additional observations from a re-analysis of the deposited data

Results flagged for a closer look

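In 14 of 100 groups of 4 libraries the CPM of a member had 1 library far from the other 3 by Dixon's test at its 95% level, where chance gives about 1 in 20, and 7 of the 14 were replicate 2. For *Itga8* replicate 2 was far above in 5 groups: 140 CPM in LacZ and 164 CPM in iCre cells with TGFβ, 22.9 and 56.9 CPM with IL-1β, and 53.5 CPM in LacZ cells with TNFα. For *Itgb1* replicate 2 was far below with TNFα, in LacZ cells at 1044 CPM and in iCre cells at 924 CPM. Replicate 1 stood apart for *Itga1* (69.6 CPM in iCre with bFGF and 52.9 CPM in LacZ with TGFβ), for *Itga2* (5.36 CPM in LacZ with IL-1β and 8.22 CPM in LacZ with TGFβ) and for *Itgb5* (379 CPM in iCre with bFGF and 1339 CPM in LacZ with TGFβ). For *Itga2* replicate 4 stood apart at 54.8 CPM in iCre cells with IL-1β.

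A ligand response differed between iCre and LacZ for 4 genes by the interaction test of edgeR. The log2 difference was 1.55 for *Itga2* with IL-1β (adjusted p = 0.0307), and with TNFα it was 0.84 for *Itga5* (adjusted p = 0.0495), -0.83 for *Itgav* (adjusted p = 0.00805) and 1.62 for *Itgb3* (adjusted p = 0.00133).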

How the results depend on the processing

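Of 44 member calls without a block, 23 passed the threshold with the same direction in every alternative tried, and 20 were lost when some replicate number was left out. The replicate block kept all 44 and added 60. It raised the number of members called to 6 for bFGF and 9 for TNFα against CTRL in LacZ, to 7, 8 and 6 for bFGF, TGFβ and IL-1β against CTRL in iCre, to 8, 6, 7 and 9 for iCre against LacZ in CTRL and with bFGF, TGFβ and IL-1β, and to 2, 4 and 5 for the interactions of TGFβ, IL-1β and TNFα, and changed no other count by over 1.5 times. The block with the GC correction gave 6, 9, 7, 8, 7, 9, 6, 4 and 9 for the same comparisons of groups in that order, and 5 for the IL-1β interaction. The GC correction alone gave 2 for IL-1β in iCre, 1 for iCre against LacZ in CTRL, 1 with TGFβ and 1 for the TNFα interaction. DESeq2 gave 3 for bFGF and 2 for IL-1β in iCre, 3, 4 and 5 for iCre against LacZ in CTRL and with TGFβ and IL-1β, and 2 for the IL-1β interaction. All 40 libraries in a single fit gave 3 for bFGF in iCre, 1 for iCre against LacZ in CTRL and 1 with TGFβ, and 0 and 1 for the IL-1β and TNFα interactions. With filterByExpr or no filter 1 member was called for iCre against LacZ in CTRL. The cause of these shifts was not tested.

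Leaving out 1 replicate number in turn gave 2 to 5 calls for bFGF, 1 to 6 for IL-1β and 2 to 7 for TNFα in LacZ, and 0 to 5, 1 to 4 and 2 to 6 in iCre. For iCre against LacZ it gave 0 to 4 in CTRL, 0 to 1 with bFGF and 0 to 6 with TGFβ, and for the interactions 0 to 1 (TGFβ), 0 to 2 (IL-1β) and 1 to 3 (TNFα). *Itga8* with TGFβ in LacZ lay between -3.58 without replicate 2 and 0.0504 without replicate 1, a reversed sign. The change of *Itgb5* with IL-1β in iCre turned to -0.002 with the GC correction and -0.0022 with the block added, from 0.21.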
